A study of Mus musculus with 2 samples.

Results

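Transcripts of the complement system were followed across the annotated cell types of transplanted mouse hearts, in 9 genes of the 22337 symbols in the deposited matrix. They were chosen by name and not by a cut on their values, but with earlier results of these data known. They are the chains of C1q (*C1qa*, *C1qb* and *C1qc*), the components *C3* and *C4b*, factor B (*Cfb*), properdin (*Cfp*), and the receptors *C3ar1* and *C5ar1*. The hearts came from male Bm12 mice, whose altered class II molecule (H2-Ab1 bm12) is recognized by C57BL/6 (B6) CD4+ T cells, and were placed into male B6 recipients and taken at postoperative day (POD) 14. Of the hearts, 3 carried *Il33* (IL-33+) and 3 were Il33-/- (IL-33-), and the recipients had *Il33* in both groups. Cells enriched for leukocytes on a density gradient were marked with 1 hashtag antibody per heart, pooled, and read as 1 single-cell library of 4441 cells, in which a unique molecular identifier (UMI) counts each captured transcript. Hearts 1, 2 and 3 were IL-33+ and hearts 4, 5 and 6 were IL-33-, and the heart was the replicate throughout.

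The targeted gene does not check these labels. In cells annotated fibroblasts, *Il33* was read from 7, 0 and 121 UMIs in hearts 1, 2 and 3 and from 9, 3 and 5 UMIs in hearts 4, 5 and 6, so that the levels of the groups overlapped. Whether the 3' tag lies outside the deleted stretch is not given in the sources used here, and the groups are named by their labels. Hearts gave between 230 and 1666 cells and between 908129 and 7012943 UMIs, with a median of 3291 to 4458 UMIs per cell. The annotation holds 14 types. By the summed level of a marker list, which also depends on the genes in it, several types had another class highest. Cells annotated Mo-DCs had the neutrophil list highest, and cells annotated unconventional T cells the macrophage list, 52 of the 83 holding at least 2 macrophage and 2 T cell markers. Monocytes had the macrophage list (6789 CPM) above the monocyte list (5170 CPM), cDCs had the monocyte list highest (1623 CPM), NKT cells the NK cell list, and Treg and Trm-like cells the erythroid list (3172 and 2520 CPM). All names are used below as the labels of the annotation.

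Complement is a cascade of plasma proteins that coats targets and recruits cells. C1q recognizes bound antibody and dying cells and, through the proteases C1r and C1s, cuts C4 to open the classical pathway. All routes meet at C3. Its fragments mark surfaces, and with factor B, held together by properdin, they form the alternative pathway's own C3-cutting enzyme. The small fragments C3a and C5a act on myeloid cells through the receptors encoded by *C3ar1* and *C5ar1*. The liver supplies most C3 in plasma, whereas C1q is largely made by macrophages and dendritic cells, and deposits of a C4 fragment are read in graft biopsies as a sign of antibody-mediated rejection.

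Among the genes, those for C1q lie side by side on the minus strand of chromosome 4 of GRCm38 within 18.7 kb (*C1qb* from 136880129 to 136886187, *C1qc* from 136889804 to 136893065 and *C1qa* from 136895917 to 136898803, ENSMUSG00000036905, ENSMUSG00000036896 and ENSMUSG00000036887). *C4b* (chromosome 17, 34728380 to 34743882) and *Cfb* (34856374 to 34862518) share the class III region of the major histocompatibility complex, and *C3* lies farther along the same chromosome (57203970 to 57228136). *Cfp* is on chromosome X (20925454 to 20931555), *C3ar1* on chromosome 6 (122847138 to 122856161) and *C5ar1* on chromosome 7 (16246743 to 16259540), all on the minus strand. Values of *C4b* are uncertain because reads can be shared with its near-identical neighbor *C4a*, which had 8 UMIs in all cells, and *Cfb* overlaps the gene model Gm20547 on the same strand. The microRNA genes Mir6972 and Mir6978 overlap *Cfb* and *C3*. RefSeq promoters matched 6 of the 9 genes. Those of *C1qb* and *C1qc* are shown, since these genes were read together in the same cells, as the 250 bases before the start on GRCm38.p6, minus strand, 5′ to 3′. The *C1qb* stretch is chr4:136886201-136886450 and the *C1qc* stretch chr4:136892915-136893164, with capitals marking GAGGAA, the core bound by the myeloid factor PU.1, on either strand:

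C1qb: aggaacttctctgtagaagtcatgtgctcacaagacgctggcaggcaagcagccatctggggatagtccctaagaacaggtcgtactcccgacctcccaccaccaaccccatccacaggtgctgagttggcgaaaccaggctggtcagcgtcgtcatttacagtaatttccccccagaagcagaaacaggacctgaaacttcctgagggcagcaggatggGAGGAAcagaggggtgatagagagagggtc
C1qc: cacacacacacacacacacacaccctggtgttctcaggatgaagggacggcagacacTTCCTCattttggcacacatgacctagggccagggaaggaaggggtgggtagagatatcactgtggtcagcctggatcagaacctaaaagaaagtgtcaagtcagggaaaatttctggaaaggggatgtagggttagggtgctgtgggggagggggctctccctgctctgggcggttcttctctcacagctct

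The match lay at -30 to -25 from the start of *C1qb* and at -193 to -188 from that of *C1qc*, on the opposite strand. The RefSeq start of *C1qc* lies inside the gene as GENCODE draws it, so that part of its window overlaps that gene model. GAGGAA was held by 2 of the 6 matched promoters, and by 23.2% of 32851 RefSeq promoter windows of the same length. TTGNNNAA, a short form of the C/EBP motif that does not overlap these matches, was held by 4 of the 6 (*C1qb*, *C3*, *Cfp* and *C5ar1*) and by 33.3% of all windows. GGGNNTTCC, a form of the NF-kB motif, was in none of the 6 windows, against 4.98% of all. These letters are a description of the windows and not of binding.

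The 9 genes divided by cell type. C1q transcripts were at their highest in macrophages, *C3* and *C4b* in fibroblasts, *Cfb*, *Cfp* and *C3ar1* in macrophages, and *C5ar1* in Mo-DCs and monocytes. Within Mo-DCs, *C5ar1* was higher in the cells with neutrophil markers than in the others. Levels are given in CPM (the UMIs of a gene scaled to the same total in every cell), taken as the mean of all cells of the type in 1 heart and then of the 6 hearts. Types were annotated by clustering these same transcripts, so that differences between types are described without a test.

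**Figure D1:**
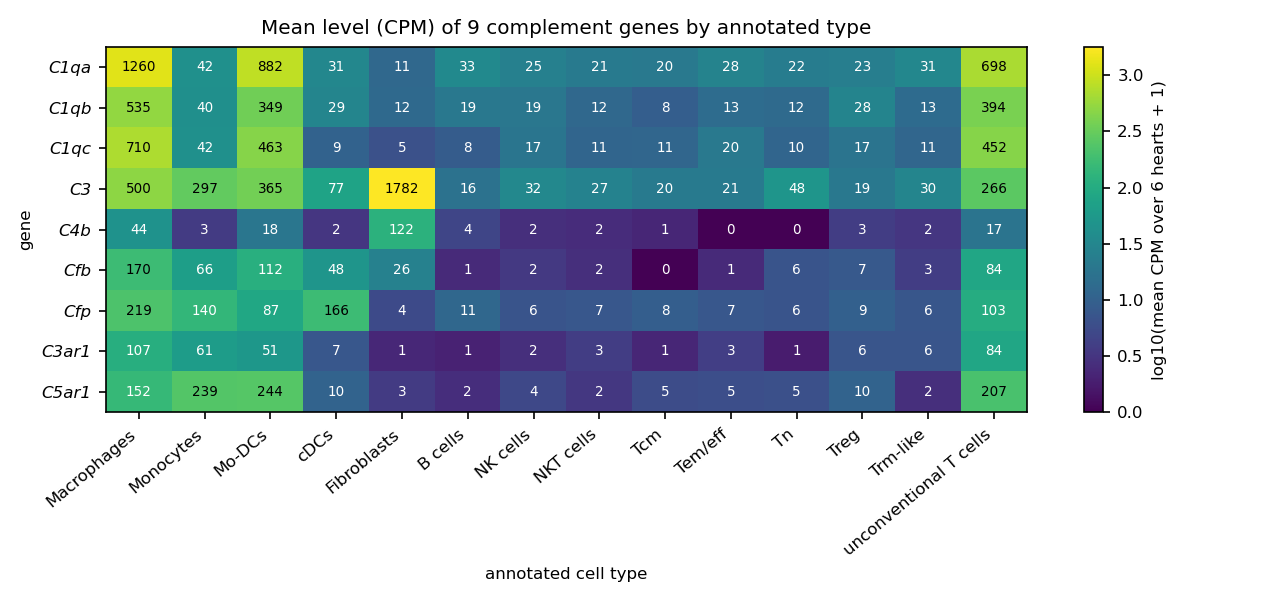
Mean level in CPM over 6 hearts (numbers, and colour on a log10 scale after adding 1) of the 9 genes (rows) in the 14 annotated types (columns). *C3* in fibroblasts (1782 CPM) and *C1qa* in macrophages (1260 CPM) are the highest values, and the 8 lymphocyte types from B cells to Trm-like are low for every gene.

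*C1qa* was at 1260 ± 162 CPM in macrophages (SD, n = 6 hearts), 882 ± 609 CPM in Mo-DCs and 698 ± 237 CPM in unconventional T cells, and the ranges of these neighbors overlapped over hearts. The next type, monocytes, was at 42.0 ± 41.9 CPM and did not overlap with them. *C1qb* and *C1qc* had the same split, with 535 ± 175 and 710 ± 112 CPM in macrophages and 40.5 ± 42.9 and 42.0 ± 26.7 CPM in monocytes. In the other 10 types the means ran from 11.4 to 33.4 CPM for *C1qa*, from 8.29 to 29.1 CPM for *C1qb* and from 5.43 to 19.8 CPM for *C1qc*, and each type overlapped with the next in order.

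Macrophages gave most C1q transcripts although they were 9.66% of the cells and held 15.0% of all UMIs. They held 74.8% of *C1qa* UMIs, 70.8% of *C1qb* UMIs and 73.9% of *C1qc* UMIs, with a share of 55.7% to 82.3% for *C1qa* in single hearts. The 8 lymphocyte types, 68.1% of the cells, held 4.80%, 6.54% and 5.44%.

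The chains were detected together. Of 429 macrophages, 205 (47.8%) had UMIs of all 3 chains, 34 (7.93%) of 2, 43 (10.0%) of 1 and 147 (34.3%) of none. The median depth of the 147 cells was 6323 UMIs and that of the other 282 was 6818 UMIs. Among macrophages with a *C1qa* UMI, 88.3% had a *C1qc* UMI, against 11.1% of those without. This held in each heart, with 81.8% to 100% against 0% to 75%, the last from 4 cells of heart 2. Thus a macrophage mostly had either all chains or none at this depth.

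**Figure D2:**
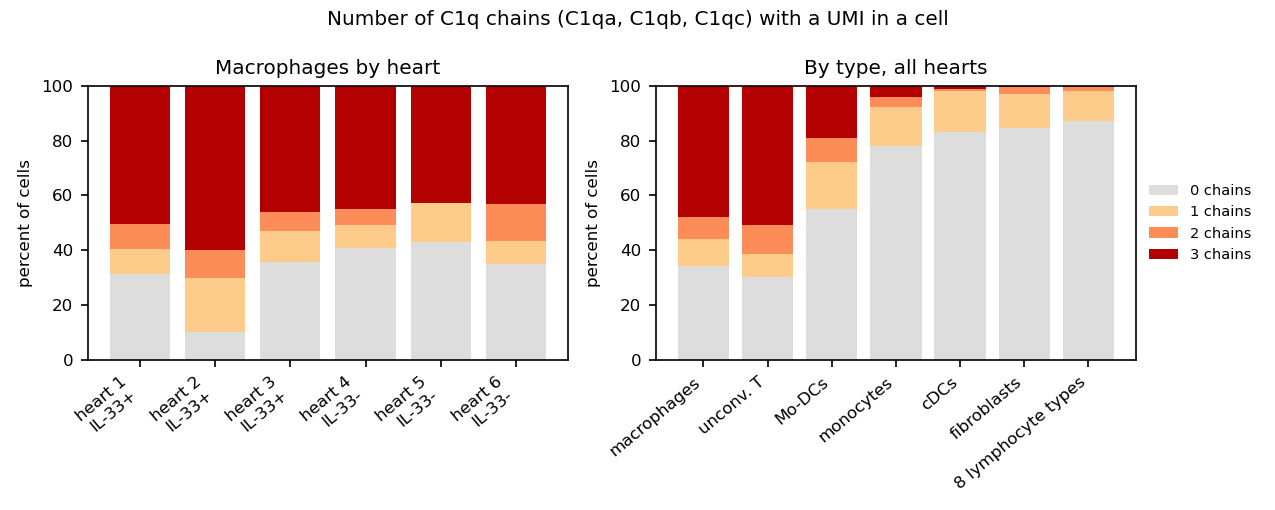
Percent of cells (y axis) with UMIs of 0, 1, 2 or 3 C1q chains (colours), for the macrophages of each heart (left) and for 7 groups of cells over all hearts (right). All 3 chains were found in 42.9% to 60% of macrophages in a heart, in 50.6% of unconventional T cells and in 0.298% of the 8 lymphocyte types.

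Outside macrophages the pattern differed between types. Unconventional T cells held all 3 chains in 42 of 83 cells (50.6%) and Mo-DCs in 39 of 204 (19.1%). Among 3025 lymphocytes, 385 (12.7%) had a C1q UMI, mostly of 1 chain (327 cells, 10.8%), and 9 cells (0.298%) had all 3. A *C1qa* UMI was found in 5.82% of lymphocytes (median depth 3181 UMIs) and in 57.8% of macrophages (6606 UMIs). Computed for cells thinned to 1500 UMIs, these shares were 2.90% and 45.6%. The thinned share in cDCs was 2.63% and in fibroblasts 2.54%, near the level of lymphocytes. Whether these UMIs came from the cells that held them was not tested. In monocytes it was 4.12%. Of 154 monocytes (median depth 6709 UMIs), 22.1% had a C1q UMI and 6 (3.90%) had all 3 chains, both above the shares of lymphocytes.

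*C1qa* made up 47.7% of the C1q UMIs in macrophages (exact 95% interval 46.6% to 48.8%, counting error only), 48.7% in Mo-DCs (45.1% to 52.4%), 45.6% in unconventional T cells (42.7% to 48.4%) and 41.6% in lymphocytes (37.5% to 45.6%). *C1qb* took 24.5% in macrophages (23.6% to 25.5%), 30.7% in lymphocytes (27.1% to 34.6%) and 35.5% in monocytes (28.0% to 43.6%). The lymphocyte value rests in part on Treg cells, which held 33 of its 182 *C1qb* UMIs, 24 of them in heart 3. In Tem/eff cells the share was 22.3% and in Trm-like cells 24.1%, near that of macrophages. Lymphocytes with a C1q UMI held at least 2 of 9 macrophage markers in 20% of cells, against 8.75% of the other lymphocytes. For the 58 with UMIs of 2 or 3 chains it was 48.3%, and for macrophages 97.9%.

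Within Mo-DCs, C1q and neutrophil markers were apart. In the 35 cells with at least 4 of 8 neutrophil markers, *C1qa* was at 18.1 ± 44.4 CPM and *C5ar1*, the C5a receptor, at 807 ± 313 CPM. In the other 169 cells *C1qa* was at 1076 ± 807 CPM and *C5ar1* at 124 ± 88.5 CPM. Median depths were 1924 and 2365 UMIs. The 35 cells numbered 2, 1, 20, 10, 1 and 1 in hearts 1, 2, 3, 4, 5 and 6, so that several hearts rest on 1 or 2 cells. This division was chosen after the data were seen.

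The question of the study for each type was whether loss of IL-33 from the graft changed its transcripts. Log2 fold changes below are IL-33+ over IL-33-, from limma on log2(CPM + 10) over all genes tested in a type, so that they understate changes of low genes, and a gene was called where its p, adjusted by Benjamini and Hochberg's method, was 0.05 or less. Of 126 pairs of a gene and a type, 85 passed the filter of 10 UMIs and 3 hearts with a UMI. None of the 85 was called, where 0.00884% of all 113178 gene and type pairs were (10 calls). At an unadjusted p of 0.05 or less there were 9 pairs, 8 lower and 1 higher in IL-33+ hearts, against 4.71% of all pairs. The groups of hearts did not overlap in 7 pairs, 5 lower and 2 higher, against 9.82% of all pairs. The median log2 fold change was -0.13 over the 85 pairs.

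C1q levels in macrophages did not differ beyond the spread between hearts. *C1qa* was at 1076, 1271 and 1456 CPM in hearts 1, 2 and 3 and at 1076, 1267 and 1417 CPM in hearts 4, 5 and 6, which are nearly the same values. The log2 fold change was 0.01 (SE 0.19, adjusted p = 0.996). For *C1qb* it was -0.32 (SE 0.29, adjusted p = 0.987) and for *C1qc* 0.15 (SE 0.21, adjusted p = 0.987), with groups that overlapped.

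The shares of macrophages with a *C1qa* or a *C1qc* UMI were less even. After thinning, *C1qa* was found in 47.5%, 49.8% and 47.5% of macrophages of IL-33+ hearts and in 39.9%, 44.9% and 40.6% of IL-33- hearts. For *C1qc* the shares were 40.6%, 51.9% and 39.6% against 35.7%, 31.8% and 34.6%. In both, every IL-33+ heart was above every IL-33- heart, by 6.45 and 10.0 percentage points on average. This is seen in 4.05% of all genes of macrophages, and the exact two-sided permutation p was 0.1, the smallest that 3 against 3 hearts allow. *C1qb* overlapped (36.8% ± 5.49 against 36.0% ± 3.22). Without thinning, *C1qc* also overlapped, at 67.5% ± 19.8 against 48.7% ± 5.62. So did the share with a UMI of any chain, at 68.8%, 90% and 64.3% against 59.2%, 57.1% and 64.9%.

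In cells annotated Mo-DCs, *C1qb* was at 556, 492 and 332 CPM in hearts 1, 2 and 3 and at 203, 226 and 288 CPM in hearts 4, 5 and 6. The IL-33+ hearts were all above the IL-33- hearts, but the log2 fold change of 0.90 was not called (SE 0.56, adjusted p = 0.9998). Hearts 2 and 5 rest on 4 and 7 of these cells. In unconventional T cells, *C1qc* was at 314, 138 and 460 CPM against 391, 920 and 489 CPM, with hearts 3 and 4 overlapping (log2 fold change -1.01, SE 0.37, adjusted p = 0.984). Without hearts that had under 10 of these cells, which left hearts 1 and 3 against heart 4 alone, it was -0.04.

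*C3*, the component on which the pathways meet, was highest in fibroblasts. These were at 1782 ± 664 CPM (n = 6 hearts), above macrophages at 500 ± 168 CPM without overlap. Mo-DCs (365 ± 244 CPM), monocytes (297 ± 87.0 CPM) and unconventional T cells (266 ± 148 CPM) followed, each overlapping with the next. Fibroblasts held 64.4% of all *C3* UMIs and macrophages 21.0%, but the share from fibroblasts ran from 26.1% to 87.2% between hearts, with 4 to 270 fibroblasts in a heart.

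*C3* was mostly in the fibroblasts without endothelial markers. In the 303 fibroblasts with fewer than 2 of 8 endothelial markers it was at 2108 ± 625 CPM and was found in 80.2% of cells. In the other 72 cells it was at 213 ± 298 CPM and found in 16.7%, at a median depth of 5922 against 5679 UMIs. These 72 cells came from 5 hearts, with 6, 2, 51, 10 and 3 cells in hearts 1, 2, 3, 4 and 6. *C4b*, the substrate of C1s, had the same order, at 143 ± 59.2 and 6.02 ± 5.68 CPM. This split was also chosen after the data were seen.

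*C4b* was low elsewhere. It was at 122 ± 64.2 CPM in fibroblasts and 44.3 ± 28.7 CPM in macrophages, whose ranges overlapped, and was under 19 CPM on average in each other type. Of fibroblasts with a *C3* UMI, 32.9% had a *C4b* UMI, against 5.00% of those without, at median depths of 5959 and 5606 UMIs.

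Between genotypes, *C3* in fibroblasts was at 1448, 1377 and 1551 CPM in IL-33+ hearts and at 1209, 2128 and 2977 CPM in IL-33- hearts. Heart 4 was below all IL-33+ hearts and hearts 5 and 6 above them, and heart 5 rests on 4 cells. The log2 fold change was -0.43 (SE 0.28, adjusted p = 0.998). *C4b* in fibroblasts was at 93.5, 61.9 and 88.6 CPM against 81.5, 183 and 220 CPM, again with heart 4 overlapping (log2 fold change -0.82, SE 0.46, adjusted p = 0.998). The 8 endothelial markers summed in fibroblasts to 767 to 1004 CPM in IL-33+ hearts and to 1273, 52.3 and 343 CPM in hearts 4, 5 and 6. Without the 72 cells that held at least 2 of these markers, *C4b* was at 111, 92.9 and 107 CPM against 116, 183 and 245 CPM, which no longer overlapped, and *C3* still did. The log2 fold changes were then -0.69 for *C4b* (SE 0.49) and -0.29 for *C3* (SE 0.28), both with an adjusted p = 0.9998.

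In macrophages *C3* was at 474, 650 and 232 CPM in IL-33+ hearts and at 541, 693 and 413 CPM in IL-33- hearts. Heart 3 was the lowest of all and the groups overlapped (log2 fold change -0.36, SE 0.29, adjusted p = 0.987). Without heart 3 the log2 fold change was 0.05.

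The gene that separated the genotypes most among the 9 was *Cfb*. It encodes factor B, the protease subunit of the alternative pathway's C3-cutting enzyme. Over types it was highest in macrophages (170 ± 82.1 CPM, n = 6 hearts), followed by Mo-DCs (112 ± 111 CPM), unconventional T cells (83.5 ± 51.4 CPM) and monocytes (66.4 ± 52.8 CPM), with overlap at each step. Macrophages held 61.6% of its 758 UMIs.

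In macrophages *Cfb* was at 111, 66.5 and 111 CPM in IL-33+ hearts 1, 2 and 3, from 157, 5 and 83 UMIs. In IL-33- hearts 4, 5 and 6 it was at 246, 235 and 247 CPM, from 122, 39 and 61 UMIs. The IL-33- hearts were close to each other, at 243 ± 6.58 CPM, and each was above every IL-33+ heart (96.2 ± 25.8 CPM, n = 3 hearts per group). Lower levels without overlap are seen in 5.15% of the genes tested in macrophages. The log2 fold change was -1.28 (SE 0.27, unadjusted p = 0.000125), the 4th smallest p of 9683 genes. Over all of these genes, limma gave an adjusted p = 0.302, so that the gene was not called.

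This difference kept its direction, without overlap, under each of 14 alternatives in macrophages, with log2 fold changes from -1.39 to -1.02. It was called in 1 of them: without IL-33+ heart 3 the adjusted p was 0.0183. Over the 14 alternatives the adjusted p ran from 0.0183 to 0.998.

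The values of the cells around it were as follows. Macrophages numbered 192, 10 and 98 in IL-33+ hearts and 71, 21 and 37 in IL-33- hearts, with median depths of 6244 to 6596 and 6259 to 7122 UMIs. The summed level of all 9 macrophage markers was 4461 to 9229 CPM against 7951 to 8902 CPM, that of 6 monocyte markers 1854 to 2000 against 1893 to 2837 CPM, and that of 8 neutrophil markers 26.5 to 133 against 97.5 to 2692 CPM, the highest in heart 5. All of these overlapped between the groups, *Ly6g* was at 0, and their part in the difference was not tested.

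**Figure D3:**
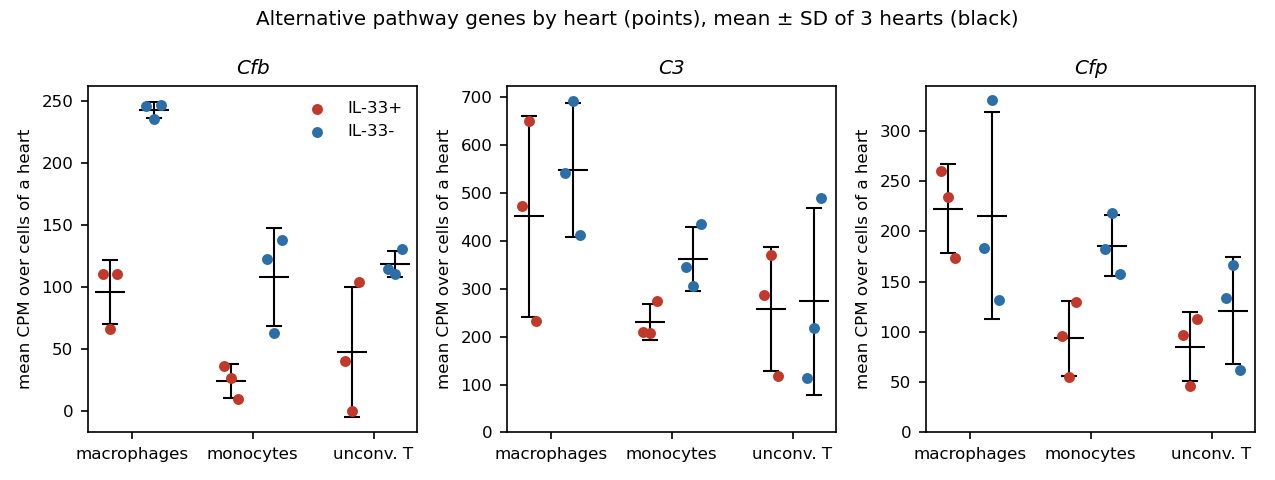
Mean CPM over the cells of a heart (y axis) of *Cfb*, *C3* and *Cfp* in macrophages, monocytes and unconventional T cells, with 1 point per heart (red IL-33+, blue IL-33-) and the mean ± SD of 3 hearts in black. *Cfb* of the IL-33- hearts lies above that of the IL-33+ hearts in each of the 3 types, and *C3* and *Cfp* do so only in monocytes.

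Monocytes had a like pattern for *Cfb*, at 37.0, 27.0 and 9.93 CPM in IL-33+ hearts and 123, 63.4 and 138 CPM in IL-33- hearts. These rest on 20, 1 and 1 and on 29, 4 and 10 UMIs. The groups did not overlap, as for 4.69% of genes of monocytes in this direction. The log2 fold change was -1.79 (SE 0.62, adjusted p = 0.965), and it ran from -2.20 to -1.07 over 14 alternatives.

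In unconventional T cells, *Cfb* was at 40.7, 0 and 104 CPM against 115, 111 and 131 CPM. The groups again did not overlap (5.78% of genes in this direction), the value of 0 being from 2 cells of heart 2. The log2 fold change was -1.73 (SE 0.73, adjusted p = 0.984), and it was -0.76 without heart 2. It was -0.72 without hearts that had under 10 of these cells, which left hearts 1 and 3 against heart 4 alone. The groups overlapped in 2 of 14 alternatives. Of the 83 cells, 52 held at least 2 macrophage and 2 T cell markers. Whether their *Cfb* is separate from that of macrophages was not tested.

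The share of cells with a *Cfb* UMI moved with the level. After thinning it was 12.9%, 9.45% and 12.4% of macrophages in IL-33+ hearts and 24.1%, 18.5% and 20.1% in IL-33- hearts. The difference of -9.30 percentage points had an exact permutation p of 0.1, and 5.11% of genes in macrophages were lower without overlap. Without thinning the groups overlapped, at 34.0% ± 6.23 against 42.9% ± 5.02. In monocytes the thinned shares were 4.25%, 4.05% and 1.49% against 13.7%, 8.49% and 17.8%, where 4.73% of genes were lower without overlap. In lymphocytes the thinned share was 0.369%.

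*Cfb* and *C3* were found in the same macrophages more than apart. Of 154 macrophages with a *Cfb* UMI, 87.7% had a *C3* UMI, against 57.1% of the 275 without, at median depths of 7176 and 6061 UMIs. The order held in each of 6 hearts, with 74.1% to 100% against 38.0% to 70.3%. In monocytes the shares were nearly level, at 75.8% of 33 cells against 71.9% of 121, and their order was not the same in each heart. A *Cfb* UMI was found in 39.7% of macrophages with a C1q UMI and in 28.6% of those without. Median depths were 6818 and 6323 UMIs. Split by a *C1qa* UMI, this order was not the same in each heart. The shares were 39.0% against 27.0% in heart 1 and 36.8% against 14.6% in heart 3. They were 33.3% against 50% in heart 2 and 27.3% against 60% in heart 5, and nearly level in hearts 4 and 6. The mean level of *Cfb* was 165 ± 92.9 CPM with and 173 ± 136 CPM without a C1q UMI.

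No such split was seen for *Cfb* in other types. In fibroblasts the log2 fold change was -0.37 (SE 0.85, adjusted p = 0.998), in Mo-DCs -0.46 (SE 0.90, adjusted p = 0.9998) and in cDCs 0.73 (SE 0.94, adjusted p = 0.926), each with overlap. In cDCs heart 2 stood at 243 CPM from 7 UMIs in 6 cells, and the other hearts were between 0 and 31.0 CPM.

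*Cfp* encodes properdin, which stabilizes the enzyme made with factor B. It was at 219 ± 70.9 CPM in macrophages, 166 ± 63.0 CPM in cDCs and 140 ± 58.9 CPM in monocytes (n = 6 hearts), with overlap between neighbors, and at 4.37 ± 6.94 CPM in fibroblasts. Macrophages held 53.4% and cDCs 16.9% of its 1358 UMIs.

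In monocytes *Cfp* was at 95.6, 55.4 and 129 CPM in IL-33+ hearts and at 182, 218 and 158 CPM in IL-33- hearts. Every IL-33+ heart was lower (log2 fold change -0.98, SE 0.42, adjusted p = 0.965). *C3* in monocytes was at 211, 208 and 274 CPM against 346, 305 and 436 CPM, also without overlap (log2 fold change -0.63, SE 0.31, adjusted p = 0.965).

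Monocytes thus had 3 of 8 tested genes lower without overlap (*Cfb*, *C3* and *Cfp*), against 4.69% of all genes of monocytes. At an unadjusted limma p of 0.05 or less in this direction there were 4 of 8, the other being *C1qb*, against 2.57%. *C1qb* rests on 20, 0 and 1 UMIs in IL-33+ hearts and on 22, 1 and 11 UMIs in IL-33- hearts, with groups that overlapped. These genes are measured in the same cells and are not independent. Monocytes numbered 82, 5 and 15 in IL-33+ hearts and 33, 7 and 12 in IL-33- hearts. Their 6 monocyte markers summed to 4518 to 5642 CPM against 5729 to 6397 CPM, so that the IL-33+ hearts were lower for this list as well. Their 9 macrophage markers summed to 6254 to 8961 against 6741 to 7664 CPM, above the monocyte list in each of 6 hearts. The part of these in the result was not tested.

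The thinned share of monocytes with a UMI fell on the same side. It was 28.5% ± 2.56 against 38.9% ± 6.75 for *C3* and 12.7% ± 5.01 against 22.9% ± 2.18 for *Cfp* (SD, 3 hearts per group), each with an exact permutation p of 0.1. The share of *C1qc* in monocytes was lower as well, at 3.38%, 0% and 5.82% against 6.78%, 6.17% and 6.37%. This is opposite to its direction in macrophages. Without thinning, the groups overlapped for *C3* and *C1qc* but not for *Cfp*. The exact permutation p of the thinned *C1qc* share was again 0.1. Over all 54 shares compared (9 genes in 6 types), 7 reached this smallest p, where 9.29% of the shares of all genes that passed the filter in the 6 types did not overlap, and the smallest Benjamini-Hochberg adjusted p was 0.771.

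In macrophages, *Cfp* did not follow *Cfb*. It was at 260, 234 and 174 CPM in IL-33+ hearts and 184, 330 and 132 CPM in IL-33- hearts, with overlap (log2 fold change 0.12, SE 0.29, adjusted p = 0.993). The effect of genotype in macrophages was set against that in monocytes within each heart. None of 8 genes was called for this difference, as for all 7104 genes tested (0% called by limma, 131 higher and 163 lower at an unadjusted p of 0.05 or less). For *Cfb* it was 0.51 (SE 0.77, adjusted p = 0.951) on the log2 scale, so that a larger difference in one type than the other was not shown. *C1qc* and *C5ar1* did not overlap between groups here, against 9.42% of genes (differences of 1.48, SE 1.09, and 0.63, SE 0.42).

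**Figure D4:**
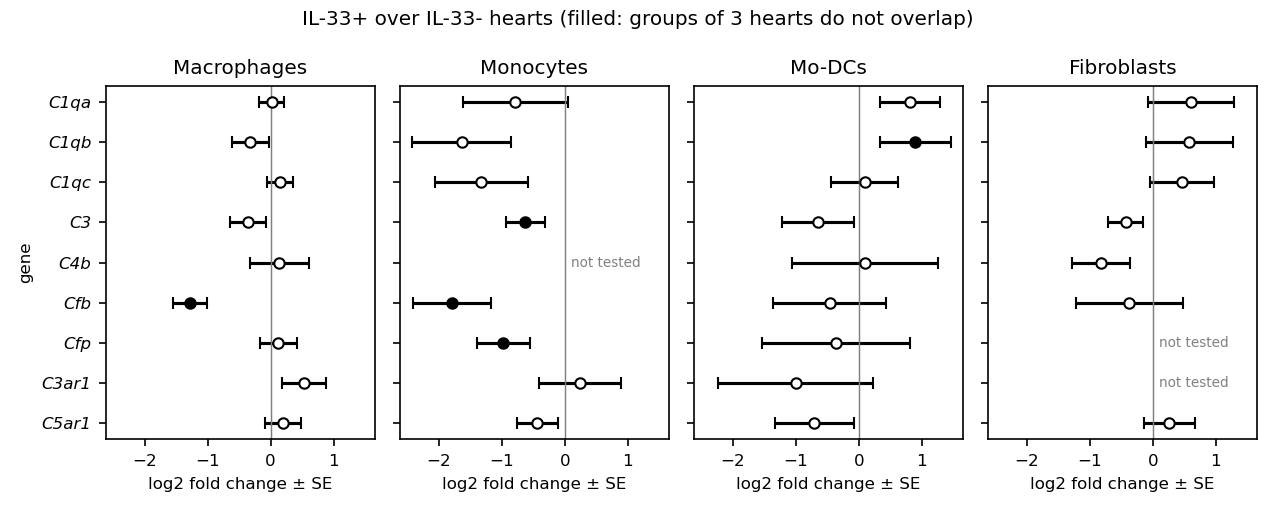
Log2 fold change ± SE from limma, IL-33+ over IL-33- (x axis), of the 9 genes (y axis) in macrophages, monocytes, Mo-DCs and fibroblasts. Filled points are genes whose 3 IL-33+ and 3 IL-33- hearts do not overlap, which are *Cfb* in macrophages, *C3*, *Cfb* and *Cfp* in monocytes and *C1qb* in Mo-DCs.

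The receptors were confined to no single myeloid type. *C5ar1* was at 244 ± 114 CPM in Mo-DCs, 239 ± 50.9 CPM in monocytes, 207 ± 160 CPM in unconventional T cells and 152 ± 35.0 CPM in macrophages (n = 6 hearts), which overlapped in turn. The next type, cDCs, was at 9.75 ± 17.6 CPM and below macrophages without overlap. Among Mo-DCs, *C5ar1* was at 807 ± 313 CPM in the 35 cells with at least 4 neutrophil markers. In the other 169 it was at 124 ± 88.5 CPM, below the mean of macrophages. *C3ar1*, the receptor for C3a, was at 107 ± 45.6 CPM in macrophages, 84.0 ± 45.0 CPM in unconventional T cells, 61.2 ± 36.1 CPM in monocytes, 50.9 ± 36.4 CPM in Mo-DCs and 6.64 ± 7.41 CPM in cDCs.

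Of macrophages with a *C3ar1* UMI, 59.9% had a *C5ar1* UMI, against 30.0% of those without, at median depths of 6732 and 6418 UMIs. The order was the same in each of 6 hearts (41.7% to 70% against 25.6% to 53.3%). *C3ar1* was also found more often where *C1qa* was, in 43.2% against 24.9% of macrophages, and in each of 6 hearts (33.9% to 56.1% against 18.8% to 29.7%).

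Neither receptor differed between genotypes beyond the spread of hearts. *C3ar1* in macrophages was at 90.0, 106 and 185 CPM in IL-33+ hearts and 114, 44.3 and 102 CPM in IL-33- hearts (log2 fold change 0.53, SE 0.35, adjusted p = 0.987). *C5ar1* was at 109, 200 and 186 CPM against 136, 148 and 131 CPM in macrophages (log2 fold change 0.20, SE 0.28, adjusted p = 0.988), and at 158, 250 and 202 CPM against 247, 289 and 286 CPM in monocytes, where heart 2 overlapped with heart 4 (log2 fold change -0.43, SE 0.33, adjusted p = 0.965).

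In the 8 lymphocyte types the 9 genes were near their floor. Averaged over these cells, *C3* was at 28.4 CPM, *C1qa* at 25.3 CPM, *C1qb* at 17.0 CPM, *C1qc* at 14.9 CPM, *Cfp* at 8.20 CPM and each other gene under 4 CPM. *C1qa* in Tem/eff cells was at 7.63, 31.1 and 6.17 CPM in IL-33+ hearts and 28.0, 76.7 and 16.1 CPM in IL-33- hearts, where heart 2 overlapped (log2 fold change -0.96, SE 0.43, adjusted p = 0.998). *C3* in NK cells was at 35.8, 47.4 and 44.1 CPM in IL-33+ hearts and at 10.6, 8.31 and 42.9 CPM in IL-33- hearts, the 1 pair that was higher at an unadjusted p of 0.05 or less (log2 fold change 0.94, SE 0.40, adjusted p = 0.840). *C3* in B cells did not overlap between groups (26.5, 21.0 and 28.5 against 20.2, 0 and 0 CPM), where hearts 5 and 6 had 4 and 15 B cells and the median of all genes was itself shifted by 0.28 on the log2 scale.

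Averaged over all cells of a heart, where fewer cells of a type and less RNA per cell cannot be told apart, none of the 9 genes was called, as none of all 14407 genes was (0% called by limma, 317 higher and 257 lower at an unadjusted p of 0.05 or less). *Cfb* was at 39.2, 11.1 and 16.0 CPM against 33.9, 31.6 and 29.6 CPM (log2 fold change -0.47, SE 0.28, adjusted p = 0.941). Heart 1 was the highest, and macrophages were 22.2% of its cells, against 4.35% to 8.49% in the other hearts. None of the 9 genes was without overlap, against 10.2% of all genes.

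A wider list of 42 complement genes gave 37 in the matrix, of which 24 had at least 10 UMIs in all cells. Its proteases, regulators and receptors divided between stroma and leukocytes. Fibroblasts were highest for *C1s1* (682 ± 165 CPM) and *C1ra* (172 ± 99.2 CPM), the proteases that act with C1q, *Serping1* (the C1 inhibitor, 627 ± 208 CPM) and *Clu* (clusterin, 324 ± 371 CPM). The fibroblasts thus held *C3*, *C4b*, C1r and C1s transcripts while C1q chains in them were near the level of lymphocytes.

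**Figure D5:**
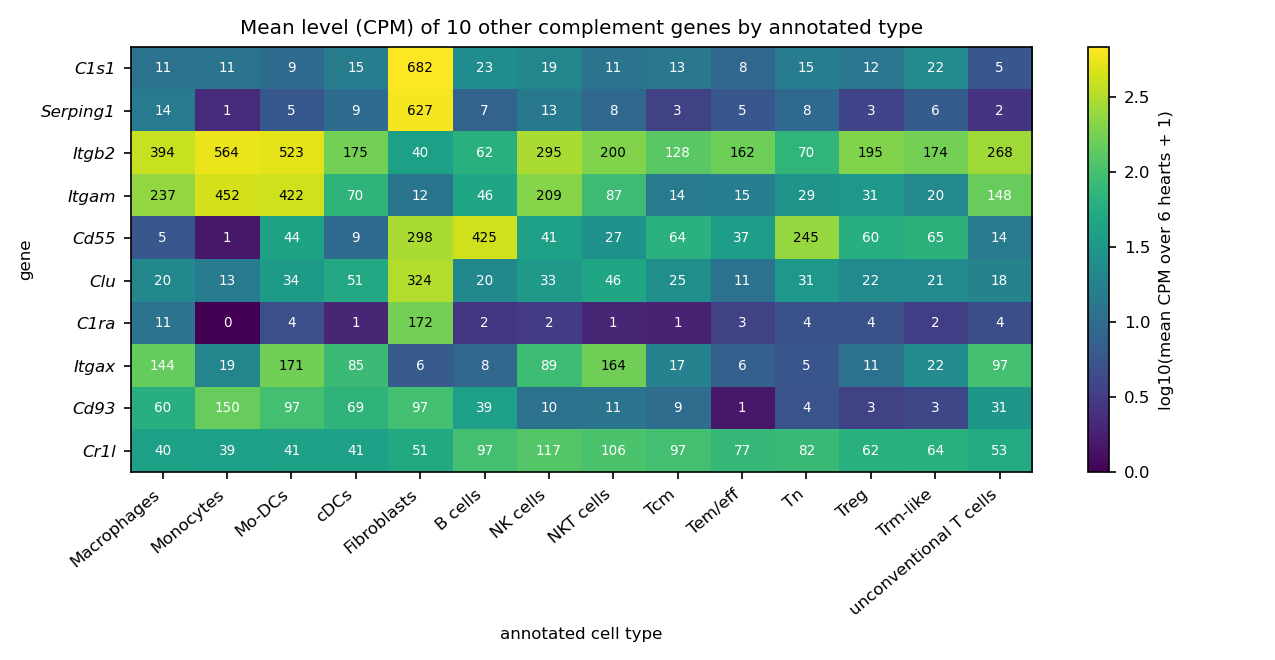
Mean level in CPM over 6 hearts (numbers, and colour on a log10 scale after adding 1) of 10 of the 11 other complement genes that reached 100 CPM in some type (rows), in the 14 annotated types (columns). *C1s1*, *Serping1*, *Clu* and *C1ra* are highest in fibroblasts, and the integrin genes *Itgb2* and *Itgam* in monocytes.

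The integrin chains of complement receptors 3 and 4 were not confined to myeloid cells, and *Itgb2* passed the filter in every type, B and T cells included. *Itgb2* was at 564 ± 120 CPM and *Itgam* at 452 ± 103 CPM in monocytes, and *Itgax* at 171 ± 180 CPM in Mo-DCs and 164 ± 54.7 CPM in NKT cells. *Cd55*, which takes C3-cutting enzymes apart on the cell surface, was at 425 ± 102 CPM in B cells, 298 ± 73.4 CPM in fibroblasts and 245 ± 83.2 CPM in Tn cells. *Cr1l*, another regulator on the membrane, reached 117 ± 23.4 CPM in NK cells, and *Cd93* 150 ± 109 CPM in monocytes. The genes of the terminal components were at or near 0, with 3 UMIs of *Hc* (C5), 25 of *C6*, 18 of *C7* and 1 of *C9* in all cells.

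Of 144 tested pairs of these genes and types, none was called, against 0.00884% of all pairs. At an unadjusted p of 0.05 or less 5 were higher and 3 lower, against 4.71% of all pairs, and the median log2 fold change was 0.01. *Cd93* was at 219 ± 121 CPM in IL-33+ hearts against 79.7 ± 18.7 CPM in IL-33- hearts in monocytes (log2 fold change 1.22, SE 0.44, adjusted p = 0.965). In fibroblasts it was at 147 ± 48.3 against 47.1 ± 61.5 CPM (log2 fold change 2.10, SE 0.65, adjusted p = 0.998), and the groups overlapped in both types. Of the fibroblasts, 72 held at least 2 endothelial markers. The endothelial markers summed in fibroblasts to 767 to 1004 CPM in IL-33+ hearts and 52.3 to 1273 CPM in IL-33- hearts. The part of these cells in the *Cd93* values was not tested.

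The genes whose levels over the 14 types were most like those of a member were named among all genes with at least 100 UMIs, by Pearson's r of log2(CPM + 10). For *C1qa* they were *Gbp2b* (0.97), *Ccl8*, *Mrc1*, *Arg1* and *Retnla* (0.95), and for *C1qb* *Mrc1*, *Arg1*, *Ccl8*, *Gbp2b* and *Trem2*. For *C1qc* they were *Trem2*, *Arg1*, *Ms4a7*, *Mrc1* and *Gbp2b*. For *C3* they were *Flt1* (0.97), *Thbd*, *Lrp1*, *Ptgs2* and *Dock1*, and for *C4b* *Trim47* (0.98), *Spon1*, *Ch25h*, *Ctnnd1* and *Vcam1*. For *Cfb* they were *Adap2* (0.98), *Parvb*, *Mmp19*, *Cstb* and *Slc31a2*, and for *Cfp* *Gm46224* (0.98), *Spint1*, *Cds1*, *Ptpro* and *9130230L23Rik*. For *C3ar1* they were *Clec4a2* (0.98), *Adgre1*, *Igsf6*, *Fcgr1* and *Hk3*, and for *C5ar1* *Klra2* (0.99), *Clec4a1*, *Ccl6*, *Clec4e* and *Ccr1*. Among the 9 genes, the C1q chains were most alike (0.98 to 0.99) and *C4b* and *Cfp* least (0.19). The 14 points share cells of 1 library and its depth.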

How the data were processed

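Gene expression was measured in 1 pooled 10x Genomics 3' library from 6 hearts, 3 per group. The authors aligned reads to mm10 with Cell Ranger, worked further in Partek Flow 10.0.23.0425 and removed likely doublets and dead cells by limits on UMIs, detected genes and mitochondrial reads. Their deposited values are log2(CPM + 1), beside which each cell has a type, a genotype and a hashtag. How hashtags were assigned to cells is not given in the sources used here. No doublet caller was run here and no cell was removed. The logarithm was undone, and 99.9% of values under 20.5 UMIs lay within 0.05 of a whole UMI (1500 to 14977 UMIs per cell).

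For each heart and type the mean CPM was taken, and log2(CPM + 10) was compared with limma 3.58.1 in R 4.3.3 (eBayes with a trend) for genes with at least 10 UMIs and a UMI in 3 hearts. The study's own per-cell test was not used, since cells of 1 heart are not replicates. Shares of cells with a UMI were computed for cells thinned to 1500 UMIs, the depth of the shallowest cell, and compared by exact two-sided permutation over hearts. Other steps used pandas 2.3.3, scipy 1.17.1, numpy 2.4.6 and matplotlib 3.10.9 in Python 3.11.15. The fit was tested on simulated data.

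The members and lists were chosen with earlier results of these data known. Named were all 9 members in every type, other complement genes at 100 CPM or more in some type or called, and the 5 genes most like each member. A single gene of the wider list is not reported here by name or in the plot, and stays in the list's counts. Coordinates are from GENCODE vM21 on GRCm38, counted from 1, and promoters from RefSeq on GRCm38.p6. Alternatives changed the pseudocount, the filter, the summing and centring of values, the cells and hearts kept, the trend and the test (limma-voom on UMIs).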

Additional observations from a re-analysis of the deposited data

How the results depend on the processing

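No member was called in any type with a pseudocount of 1 or 50 CPM, no filter, summed UMIs, median centring, no trend, limma-voom, or without cells of another class or hearts under 10 cells. With hearts left out in turn, 0 to 1 pairs were called (*Cfb* in macrophages without IL-33+ heart 3). No paired analysis was possible because the hearts share no replicate numbers between groups. The 9 member pairs at an unadjusted p of 0.05 or less became 15 with summed UMIs, 4 without the trend and 14 with limma-voom. The cause was not tested. For other complement genes, 5 such pairs became 3 in the 6 types refitted without hearts under 10 cells, and 1 pair became 0 in Mo-DCs without cells with at least 4 neutrophil markers, an alternative chosen after seeing the data. Of 306 alternative values of 22 single log2 fold changes, 294 kept their direction. The 12 reversed values were all in macrophages. *C1qa* was at -0.20 with summed UMIs, -0.10 with limma-voom and -0.091 to 0.13 with hearts left out. *C1qc* was at -0.096 with summed UMIs and -0.033 with limma-voom, *C4b* at -0.15 and *C5ar1* at -0.091 with limma-voom. With hearts left out, *C1qb* was at -0.67 to 0.096, *C3* at -0.68 to 0.047, *C4b* at -0.40 to 0.65 and *Cfp* at -0.16 to 0.47. The *Cfb* share in macrophages differed by -10.5 to -7.71 percentage points with hearts left out. Depth limits rare types: a heart with 2 to 7 cells of a type gives a level from a few UMIs. In unconventional T cells, leaving out hearts under 10 cells kept heart 4 as the only IL-33- heart.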
